A study of Mus musculus with 15 samples.

Results

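The comparison described here set the heads of mouse embryos that lacked Twist1 in the Mesp1-Cre lineage against the heads of Control embryos. It used 7 of the 15 arrays of the series, chosen by their labels: 4 conditional knockout heads (CM-CKO 1 to 4) and 3 control heads (Control 1 to 3). CM-CKO embryos were Twist1flox/del; Mesp1Cre/+, and Control embryos were Twist1flox/+; Mesp1+/+, so every embryo of both groups carried 1 floxed Twist1 allele. All were collected at embryonic day 9.5 with 18 to 20 somites, their strain was C57Bl/6 x 129 x BALB/c, and no treatment was given. Total RNA of the head was measured on 1-colour Illumina bead arrays, which read each transcript through 1 or more probes. The other 8 heads, Het (Twist1flox/del; Mesp1+/+, n = 4) and CM-Het (Twist1flox/+; Mesp1Cre/+, n = 4), entered the fit only for its estimate of the spread between embryos.

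TWIST1 is a basic helix-loop-helix transcription factor of mesenchyme. It binds E-box sequences in a pair with a partner such as the E-proteins TCF3, TCF4 and TCF12, and ID proteins take up E-proteins without binding DNA. In the mouse head it is made in cranial mesoderm and neural crest, and embryos without it fail to close the cranial neural tube. Mesp1-Cre recombines in early mesoderm, whose descendants in the head include mesenchyme, muscle precursors and vessel lining, whereas neural crest, brain and surface ectoderm keep the floxed allele.

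The model has limits that bear on every value. CM-CKO heads differ from Control heads in the deleted allele that all their cells carry, in Cre and in 1 copy of Mesp1 as well as in the loss of Twist1 from mesoderm, and within this comparison these cannot be told apart. A whole head mixes many cell types, so fewer cells of a type and less RNA per cell cannot be told apart. The labels give separate replicates and do not say which embryos shared a litter. CM-CKO 1 to 3 lay on slide 1, Control 1 on slide 2, and Control 2 and 3 on slide 3 together with CM-CKO 4. Slide 3 is therefore the one slide with both groups, and the difference there, CM-CKO 4 minus the mean of Control 2 and 3, is given below as the slide 3 difference, without a test. Levels are log2 signals after background correction and quantile normalization, and a change is the CM-CKO mean minus the Control mean on that scale. A gene counted as changed where the adjusted p of the limma fit, with Benjamini-Hochberg adjustment over 11625 genes, was under 0.05.

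Mean deposited signals of the 15 arrays lay between 341 and 434, with 19204 to 19793 probes detected on each. The number of embryos limits the precision. Arrays of Control heads correlated with each other at 0.992 to 0.993 across genes, and arrays of CM-CKO heads at 0.976 to 0.992. Xist, the RNA of the inactive X chromosome, stood at 10.53 in CM-CKO 2 and 10.39 in Control 1 and at 4.31 to 4.43 in the other 5 heads, so each group held 1 such head. Macrophage genes were mostly not measurable: 13 of 20 on that list, among them Csf1r, Ptprc, Cx3cr1 and C1qa, had no probe detected on at least 3 arrays. In the cardiac list 12 of 20 genes were not detected in that way, and 0 of the 7 that were measured changed.

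Twist1 itself (chr12:33957671-33959831, GRCm38.p6) was lower in CM-CKO heads. Its level was 9.22, 8.93, 9.12 and 9.33 in CM-CKO 1 to 4 and 9.86, 9.93 and 9.94 in Control 1 to 3. All CM-CKO heads lay below all Control heads, and the mean level was 59.0% of Control. The change was −0.76 ± 0.15 (SE, adjusted p = 0.00628), and an exact two-sided permutation test over all 35 splits of the 7 heads gave p = 0.0286, the smallest value this design allows. The call ended with slide as a block (−0.51, adjusted p = 0.0662), and the slide 3 difference was −0.61. Het heads had 8.61, 9.12, 8.79 and 9.32, a range that overlaps the CM-CKO heads. The place of the probe within the gene is not known here, so it is also not known whether the probe lies in the floxed stretch.

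Of 9 measured genes of the TWIST family, the E-proteins and the ID proteins, 5 fell and 0 rose: Twist1, its paralogue Twist2, the E-protein gene Tcf3, and Id2 and Id3. The median change of the 9 was −0.58, against −0.03 over all genes tested. Across all genes 7.23% changed, 3.96% higher and 3.27% lower. Id2 was read at 9.39 ± 0.37 (SD, n = 4) in CM-CKO and 10.43 ± 0.11 (SD, n = 3) in Control heads. No CM-CKO head reached the lowest Control head. The Id2 gene lies within 10 Mb of Twist1 on chromosome 12. Id2 changed by −1.04 ± 0.17 (SE, adjusted p = 0.00217) on its brightest probe, but its probes disagreed: 2 of 3 went the same way, and the mean over the 3 gave −0.25 with adjusted p = 0.420. Tcf3, at 7.30, 7.27, 7.15 and 7.23 in CM-CKO 1 to 4 and 8.15, 7.88 and 7.64 in Control 1 to 3, fell by 0.65 ± 0.14 (SE, adjusted p = 0.012). Its CM-CKO heads lay within 0.15 of each other and below all Control heads. The fall of Twist2 was 0.59 ± 0.14 (SE, adjusted p = 0.0223), and that of Id3 was 0.58 ± 0.15 (SE, adjusted p = 0.0288). Without Control 1 these calls were lost while the changes stayed of like size: −0.52 for Tcf3 (adjusted p = 0.0723), −0.61 for Twist2 (adjusted p = 0.0645) and −0.62 for Id3 (adjusted p = 0.0658), and the list then held 2 falls. Without Control 2 or CM-CKO 2 it held 3, with slide as a block 2, and with median scaling in place of quantile normalization 2. The remaining E-protein genes did not pass, with Tcf12 at 0.11 (adjusted p = 0.711) and Tcf4 at −0.15 (adjusted p = 0.596).

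The comparison found 840 changed genes, of which 460 were higher and 380 were lower in the CM-CKO heads. Large changes were mostly rises: 179 genes (1.54%) were at least 2-fold higher and 21 (0.181%) at least 2-fold lower. The median size of a change was 0.64. In 805 of the 840 genes the groups did not overlap. The fit that chose these genes used the same heads, so this count is no separate check. Groups did not overlap in 20.1% of all genes tested (8.49% with CM-CKO above and 11.6% below). At an unadjusted p under 0.05 there were 2714 genes. Median scaling gave 336 higher and 98 lower, which is 77.4% higher against 54.8% here. Of the 840 genes, 29 were detected on every CM-CKO array and on no Control array, and 8 on every Control array and no CM-CKO array.

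**Figure D1:**
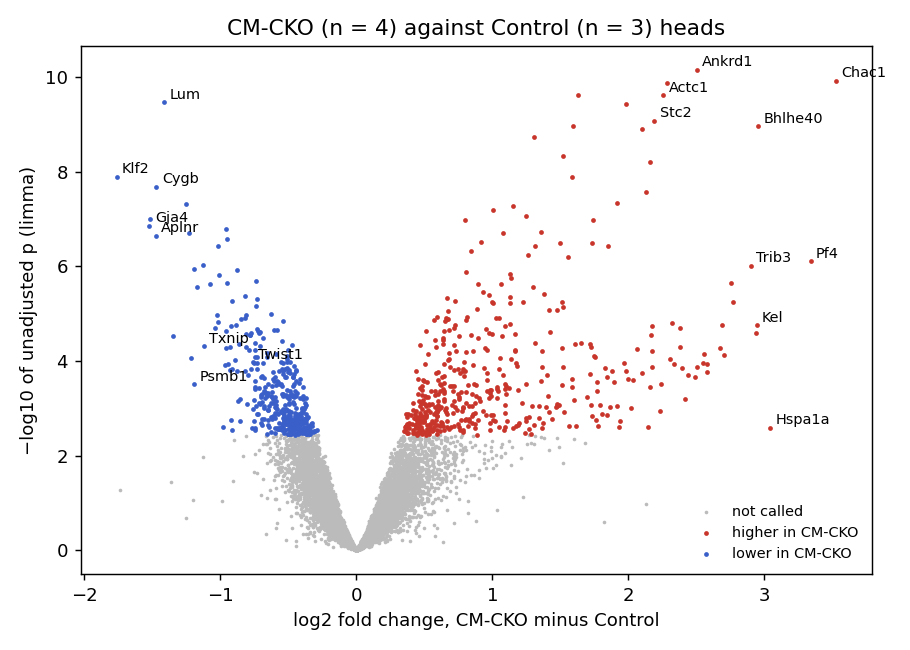
Change of each of the 11625 genes (horizontal axis, log2 CM-CKO minus Control) against its unadjusted p from the limma fit (vertical axis, −log10), with 4 CM-CKO and 3 Control heads. Red points are the 460 genes that were higher and blue points the 380 that were lower at adjusted p under 0.05; the red points reach 3.53 (Chac1) and the blue points −1.76 (Klf2).

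Genes induced by low oxygen were higher as a group. The hypoxia-inducible factors are transcription factors that are destroyed when oxygen is plentiful, and their targets handle oxygen sensing, vessel growth and energy supply. Of 27 measured hypoxia-inducible genes outside glycolysis, 20 rose and 0 fell, with a median change of 0.84. The list mean over Control was 0.98, 1.14, 1.00 and 0.93 in CM-CKO 1 to 4, so the 4 heads were close to each other. The slide 3 median was 0.84. In each alternative that was run, between 17 and 22 of the list passed.

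Bhlhe40 (chr6:108660629-108666925), a transcriptional repressor, had the highest rise of the list. Its level was 8.23, 8.08, 8.06 and 7.29 in CM-CKO 1 to 4 and 5.32, 4.68 and 4.88 in Control 1 to 3. Every CM-CKO head was above every Control head, with CM-CKO 4 the lowest of the 4. Bhlhe40, detected on 2 of 3 Control arrays, rose by 2.95 ± 0.23 (SE, adjusted p = 1.28e-06), and the slide 3 difference was 2.50. Stc2, a secreted glycoprotein gene that belongs to the amino acid stress list too, was read at 8.17, 8.10, 8.02 and 8.14 in CM-CKO 1 to 4 and 5.98, 5.58 and 6.19 in Control 1 to 3. The CM-CKO heads lay within 0.15 of each other and above all Control heads. Stc2 rose by 2.19 ± 0.17 (SE, adjusted p = 1.22e-06). Ddit4, an inhibitor of mTOR signalling also held by both lists, rose by 2.10 ± 0.17 (SE, adjusted p = 1.36e-06), from 9.06, 8.78 and 9.28 in Control to 11.18, 11.17, 11.25 and 10.95 in CM-CKO heads. Ppp1r3c, which directs a phosphatase to glycogen, was at 8.54, 8.51, 8.43 and 8.03 in CM-CKO 1 to 4 and 6.72, 6.75 and 6.78 in Control 1 to 3. It rose by 1.63 ± 0.11 (SE, adjusted p = 5.73e-07), with the Control heads within 0.06 of each other.

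Genes of the oxygen sensor itself were among the rises. Egln3, a prolyl hydroxylase that marks HIF for destruction, rose by 1.31 ± 0.16 (SE, adjusted p = 0.000112), and Egln1, of the same family, by 0.75 ± 0.13 (SE, adjusted p = 0.00265). Ankrd37 rose by 1.59 ± 0.15 (SE, adjusted p = 9.32e-06). Plod2, which modifies collagen lysines, rose by 1.00 ± 0.11 (SE, adjusted p = 3.46e-05), and P4ha2, which modifies collagen prolines, by 0.84 ± 0.10 (SE, adjusted p = 0.000141). Vegfa, the main growth signal to vessel lining cells, was at 10.04, 10.18, 10.19 and 9.37 in CM-CKO 1 to 4 and 8.83, 8.82 and 8.91 in Control 1 to 3. It was lowest in CM-CKO 4 of the knockout heads, rose by 1.09 ± 0.18 (SE, adjusted p = 0.00201), and had a slide 3 difference of 0.50. Adm, which encodes adrenomedullin, was not well above background in any Control head, so that only a bound can be given: its CM-CKO level was at least 2.42-fold higher (adjusted p = 0.000107). This fold is the mean of the group that detected the gene over the signal at the other group's detection threshold, as in every such case below. The adjusted p given with it is from the limma fit on measured values.

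The promoters of Ankrd37 and Ppp1r3c are shown because both genes rose and their starts hold several copies of the core of the hypoxia response element. Each runs from 250 bases before to 50 after the gene start in RefSeq (GRCm38.p6, read on the minus strand of the chromosome, 5′ to 3′). Ankrd37 is at chr8:45999801-46000100 and Ppp1r3c at chr19:36736555-36736854. Capitals mark ACGTG and GCGTG on either strand; neighbouring matches can overlap.
Ankrd37: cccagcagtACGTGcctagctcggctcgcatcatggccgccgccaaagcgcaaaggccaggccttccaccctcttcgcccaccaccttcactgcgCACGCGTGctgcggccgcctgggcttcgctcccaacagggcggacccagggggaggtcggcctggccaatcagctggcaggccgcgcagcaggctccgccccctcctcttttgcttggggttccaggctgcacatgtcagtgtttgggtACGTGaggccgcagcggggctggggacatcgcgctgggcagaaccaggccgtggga
Ppp1r3c: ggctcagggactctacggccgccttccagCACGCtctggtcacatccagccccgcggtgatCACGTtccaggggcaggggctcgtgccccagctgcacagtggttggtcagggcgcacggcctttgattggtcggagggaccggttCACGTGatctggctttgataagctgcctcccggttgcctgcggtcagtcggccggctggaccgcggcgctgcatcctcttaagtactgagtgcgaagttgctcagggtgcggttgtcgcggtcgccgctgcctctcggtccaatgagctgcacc
Each of these promoters holds 4 matches. Of 32851 RefSeq mouse promoters of that length, 43.8% hold at least 1 match, so a match alone is common. It is a description of the letters and does not show binding.

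Glucose uptake and glycolysis genes rose with smaller changes. Of 24 measured members, 12 rose and 0 fell, with a median change of 0.44. Pdk1, the kinase that turns off pyruvate dehydrogenase, was at 10.61, 10.42, 10.59 and 10.63 in CM-CKO 1 to 4 and 9.02, 9.52 and 9.07 in Control 1 to 3. All CM-CKO heads were higher than all Control heads, and Pdk1 rose by 1.36 ± 0.15 (SE, adjusted p = 7.55e-05). The glucose transporter gene Slc2a1 was at 13.24, 13.08, 13.01 and 13.18 in CM-CKO 1 to 4 and 12.44, 12.27 and 12.51 in Control 1 to 3 and rose by 0.72 ± 0.11 (SE, adjusted p = 0.000919). Pgm1, which links glycogen to glycolysis, rose by 1.08 ± 0.12 (SE, adjusted p = 7.62e-05). Pfkp, a phosphofructokinase, rose by 1.02 ± 0.16 (SE, adjusted p = 0.00163), and Aldoc, an aldolase, by 0.89 ± 0.12 (SE, adjusted p = 0.000488). The count was 8 without Control 2. Mitochondrial respiratory chain subunits gave another picture: 1 of 22 rose (Atp5a1) and 1 fell (Ndufa2), with a median change of 0.02. The rise of Atp5a1 ended with slide as a block (adjusted p = 0.0562), and so did the fall of Ndufa2 (adjusted p = 0.0920).

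The fall of 2 related genes stood beside these rises. Txnip binds thioredoxin and restrains glucose uptake, and Arrdc4 belongs to the same arrestin family. Txnip was at 7.94, 7.23, 7.57 and 7.48 in CM-CKO 1 to 4 and 8.65, 8.43 and 8.96 in Control 1 to 3. Arrdc4 was at 8.01, 7.50, 7.64 and 7.50 in CM-CKO 1 to 4 and 8.62, 8.69 and 9.19 in Control 1 to 3. In both genes every CM-CKO head was below every Control head. Txnip fell by 1.12 ± 0.20 (SE, adjusted p = 0.00375) and Arrdc4 by 1.17 ± 0.16 (SE, adjusted p = 0.000549). They were among the 20 largest falls.

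**Figure D2:**
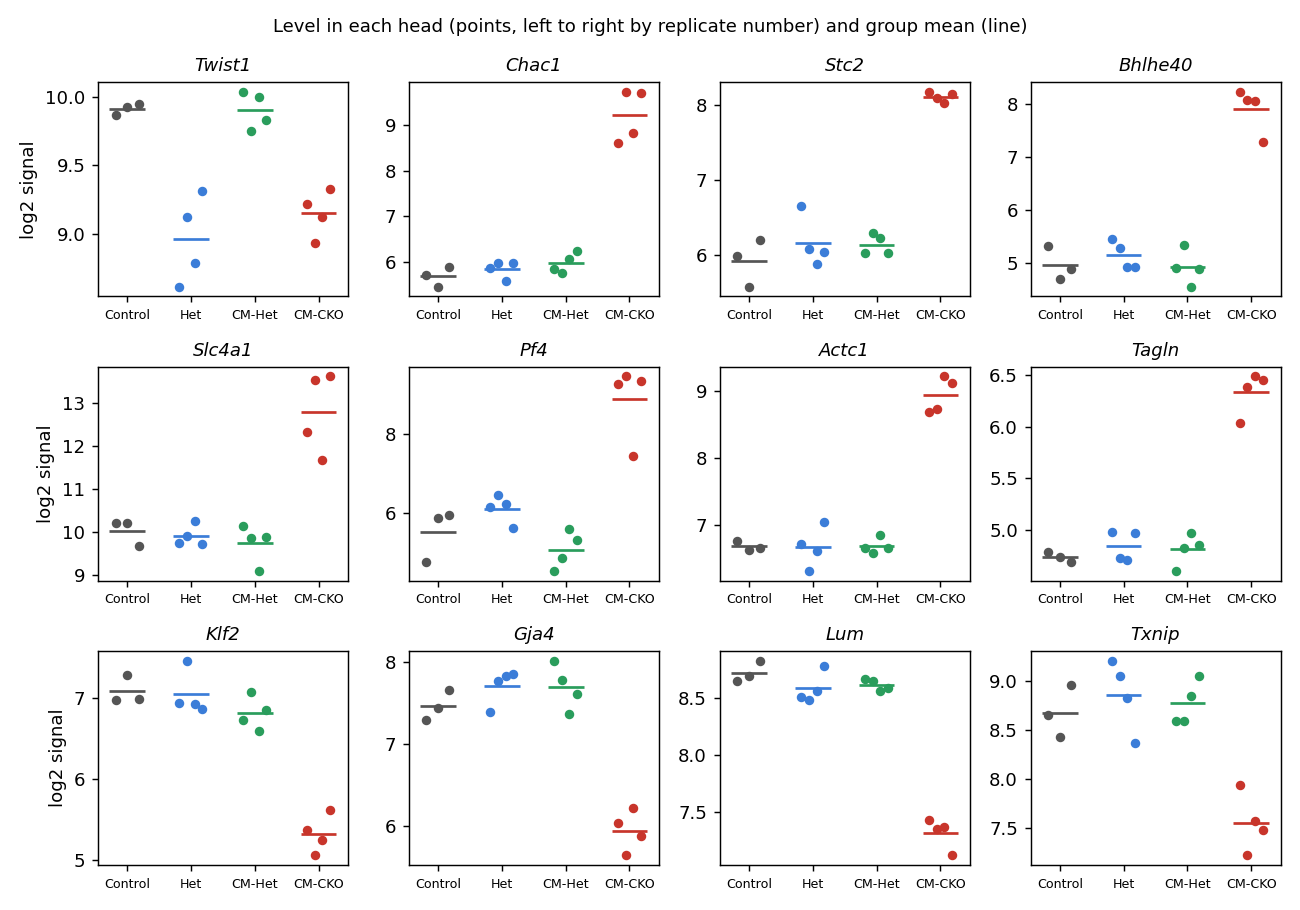
Log2 signal (vertical axes) of 12 genes in each of the 15 heads, by group, with points in order of replicate number and lines at the group mean. In all 12 panels the CM-CKO heads lie away from the Control heads; for Twist1 the Het heads (8.61 to 9.32) overlap them.

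Genes of the amino acid stress response were also higher. ATF4 is a transcription factor whose translation increases when amino acids run short or when the endoplasmic reticulum is stressed, and it drives amino acid uptake and synthesis. Of 28 measured ATF4 targets and partners, 15 rose and 0 fell, with a median change of 0.62 and a slide 3 median of 0.78. Chac1 (chr2:119351242-119354326), which breaks down glutathione, had the largest change of all genes tested. Its level was 8.61, 9.72, 8.82 and 9.69 in CM-CKO 1 to 4 and 5.70, 5.45 and 5.89 in Control 1 to 3. The lowest CM-CKO head was at 8.61 and the highest Control head at 5.89. Chac1 rose by 3.53 ± 0.24 (SE, adjusted p = 5.12e-07), which is 11.5-fold, and its slide 3 difference was 4.02.

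Trib3, a pseudokinase that dampens ATF4, was at 9.22, 9.65, 7.87 and 10.23 in CM-CKO 1 to 4 and 6.71, 6.22 and 6.09 in Control 1 to 3. CM-CKO 3 was the lowest knockout head and CM-CKO 4 the highest, all above Control. Trib3 rose by 2.90 ± 0.37 (SE, adjusted p = 0.000251). Slc7a3, a carrier of cationic amino acids, rose by 1.73 ± 0.21 (SE, adjusted p = 0.000107), and Asns, asparagine synthetase, by 1.13 ± 0.15 (SE, adjusted p = 0.000405). The rise of Asns was 1.10 without background correction but 0.44 (adjusted p = 0.0497) in the authors' value table. Vldlr, a lipoprotein receptor gene shared with the hypoxia list, rose by 1.98 ± 0.14 (SE, adjusted p = 6.24e-07) and lay between 9.22 and 9.71 in CM-CKO heads and between 7.43 and 7.59 in Control heads. Ddit3, which encodes the stress factor CHOP, was at 7.35, 7.92, 6.60 and 8.78 in CM-CKO 1 to 4 and 6.47, 6.40 and 6.38 in Control 1 to 3. It was close to Control in CM-CKO 3 and highest in CM-CKO 4, and rose by 1.24 ± 0.33 (SE, adjusted p = 0.0328), a call that ended in 7 of 18 alternatives, among them the fits without Control 1 (adjusted p = 0.0860), Control 2 (0.0950), Control 3 (0.0968) and CM-CKO 2 (0.0940). Psat1, of serine synthesis, did not pass, at 0.07 (adjusted p = 0.733). Asns and Ddit3, like Egln1, Egln3, Plod2, P4ha2, Ankrd37, Psat1 and Nos3 elsewhere in the text, were named as known members of their lists after their values were seen. Fos, Hspa5, Tcf4 and Tcf12, which did not pass, were also named outside the rules given under processing.

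Other stress lists held few or no changed genes. Of 18 endoplasmic reticulum chaperones and sensors, 0 changed at adjusted p under 0.05 and the median change was −0.01. Hspa5, the chief chaperone of that compartment, was at 0.07 (adjusted p = 0.879). Of 17 aminoacyl tRNA synthetases 0 rose and 1 fell (Yars, whose call ended in 13 of 18 alternatives), yet their median change was 0.18. The mean of that list over Control was 0.16, 0.19, 0.03 and 0.23 in CM-CKO 1 to 4, and with slide as a block 1 rose and 0 fell. The number of ATF4 list members that rose was 10 without Control 1, 10 without Control 2, 9 without Control 3 and 10 without CM-CKO 2.

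The promoters of Chac1 and Trib3 are shown because these genes rose most on the list and hold the composite element that ATF4 is known to bind. They are from RefSeq (GRCm38.p6): Chac1 on the plus strand at chr2:119350992-119351291 and Trib3 on the minus strand at chr2:152344011-152344310, each 5′ to 3′. Capitals mark TGATGNAA, here read on the opposite strand.
Chac1: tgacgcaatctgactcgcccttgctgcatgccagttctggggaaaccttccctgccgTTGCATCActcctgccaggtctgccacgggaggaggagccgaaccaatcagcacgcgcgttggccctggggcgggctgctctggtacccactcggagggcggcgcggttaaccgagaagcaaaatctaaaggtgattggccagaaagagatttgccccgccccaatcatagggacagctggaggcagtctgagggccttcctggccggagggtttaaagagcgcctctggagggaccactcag
Trib3: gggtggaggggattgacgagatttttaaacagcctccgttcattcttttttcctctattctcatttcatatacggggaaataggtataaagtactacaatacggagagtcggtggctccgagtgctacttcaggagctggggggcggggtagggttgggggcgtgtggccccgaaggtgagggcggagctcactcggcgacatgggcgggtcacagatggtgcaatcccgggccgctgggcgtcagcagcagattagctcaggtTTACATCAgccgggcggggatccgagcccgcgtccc
Both hold 1 match, and 3.97% of the 32851 promoters hold at least 1. In Chac1 the match begins 193 bases before the gene start, and in Trib3 it begins 14 bases after it. Among 25 list members with the largest rises and falls, 17 had a RefSeq promoter to search, and 2 of these held this element. A hypoxia core was held by 5 of the 17, and by 43.8% of all promoters. A TWIST1 E-box (CATATG or CATCTG on either strand) was held by 2, and by 20.3% of all promoters. Stc2 and Ddit4, also of the ATF4 list, were searched too and held no match to the ATF4 element. Vldlr held 1, in its promoter at chr19:27216770-27217069.

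Some genes of arterial and flow-exposed vessel lining were lower, while most of that list did not pass. Shear stress from blood flow induces KLF2 in endothelial cells, and KLF2 in turn activates genes such as Nos3. Of 26 measured members of this list, 6 fell, 1 rose (Edn1, a call that ended in 9 of 18 alternatives) and 19 did not pass, with a median change of −0.15 and a slide 3 median of −0.39. The 6 falls were Klf2, Gja4, Gja5, Vcam1, Sox7 and Nos3, and between 5 and 7 members fell in every alternative that was run. Klf2 (chr8:72319062-72321654) had the largest fall of all genes tested. It was at 5.37, 5.06, 5.24 and 5.61 in CM-CKO 1 to 4 and 6.97, 7.29 and 6.99 in Control 1 to 3. The highest CM-CKO head, CM-CKO 4, lay 1.36 below the lowest Control head. Klf2 fell by 1.76 ± 0.16 (SE, adjusted p = 9.32e-06), to a level 3.40-fold lower.

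The connexin genes Gja4 and Gja5, which form gap junctions in arterial endothelium, fell together. Gja4 was at 6.04, 5.64, 6.21 and 5.88 in CM-CKO 1 to 4 and 7.29, 7.44 and 7.66 in Control 1 to 3. Gja5 was at 6.01, 5.22, 5.40 and 5.31 in CM-CKO 1 to 4 and 6.63, 6.69 and 6.72 in Control 1 to 3. In neither did the groups overlap. Gja4 fell by 1.52 ± 0.17 (SE, adjusted p = 5.94e-05) and Gja5 by 1.20 ± 0.16 (SE, adjusted p = 0.000295). Vcam1, an adhesion receptor, fell by 1.35 ± 0.23 (SE, adjusted p = 0.00258). Nos3, endothelial nitric oxide synthase, was at 6.33, 6.39, 6.42 and 6.10 in CM-CKO 1 to 4 and 7.38, 6.97 and 7.25 in Control 1 to 3 and fell by 0.89 ± 0.17 (SE, adjusted p = 0.00583). Sox7, an endothelial transcription factor, fell by 0.92 ± 0.15 (SE, adjusted p = 0.00201), but did not pass when its probes were averaged.

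Markers carried by most endothelial cells gave similar counts. Of 25 measured general endothelial, venous and lymphatic genes, 5 fell and 2 rose, with a median change of −0.24. The 2 rises were Tal1 (1.88, adjusted p = 0.00791) and Vwf (0.78, adjusted p = 0.0240). Tal1 stands also on the red cell list and Vwf on the megakaryocyte list. The call of Vwf ended in 5 of 18 alternatives and that of Tal1 in 1. Every other member that passed fell. The difference between the flow list and this one was not tested. Emcn, a venous sialomucin, was at 9.39, 9.11, 9.40 and 8.95 in CM-CKO 1 to 4 and 10.07, 9.94 and 9.96 in Control 1 to 3 and fell by 0.78 ± 0.13 (SE, adjusted p = 0.00246). Ramp2, the partner of the adrenomedullin receptor, fell by 0.44 ± 0.09 (SE, adjusted p = 0.00778), a call that ended under median scaling. Pecam1 was at 6.82, 6.61, 6.50 and 6.85 in CM-CKO 1 to 4 and 6.88, 6.78 and 6.54 in Control 1 to 3, and the groups overlapped. Its change was −0.04 ± 0.16 (SE, adjusted p = 0.916). Cdh5, the vascular cadherin gene, stood at −0.37 ± 0.11 (SE, adjusted p = 0.0555), so it did not pass, although all CM-CKO heads were below all Control heads.

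Ligands and receptors of vessel growth moved in both directions. Of 12 measured members, 5 rose and 3 fell. Beside Vegfa and Adm, Angpt2, a ligand that loosens vessels, was at 6.43, 6.51, 6.74 and 6.18 in CM-CKO 1 to 4 and 5.47, 5.43 and 5.69 in Control 1 to 3 and rose by 0.93 ± 0.13 (SE, adjusted p = 0.000686). Esm1, a tip cell gene detected on 2 of 3 Control arrays, rose by 1.76 ± 0.33 (SE, adjusted p = 0.00517). It was lower in CM-CKO 4 (5.44) than in the other knockout heads (6.68 to 7.38), and its call ended with slide as a block (adjusted p = 0.0698). Aplnr, the apelin receptor gene, was at 7.22, 6.83, 7.55 and 7.11 in CM-CKO 1 to 4 and 8.65, 8.83 and 8.47 in Control 1 to 3. Every CM-CKO head was below every Control head, and Aplnr fell by 1.48 ± 0.17 (SE, adjusted p = 8.16e-05).

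**Figure D3:**
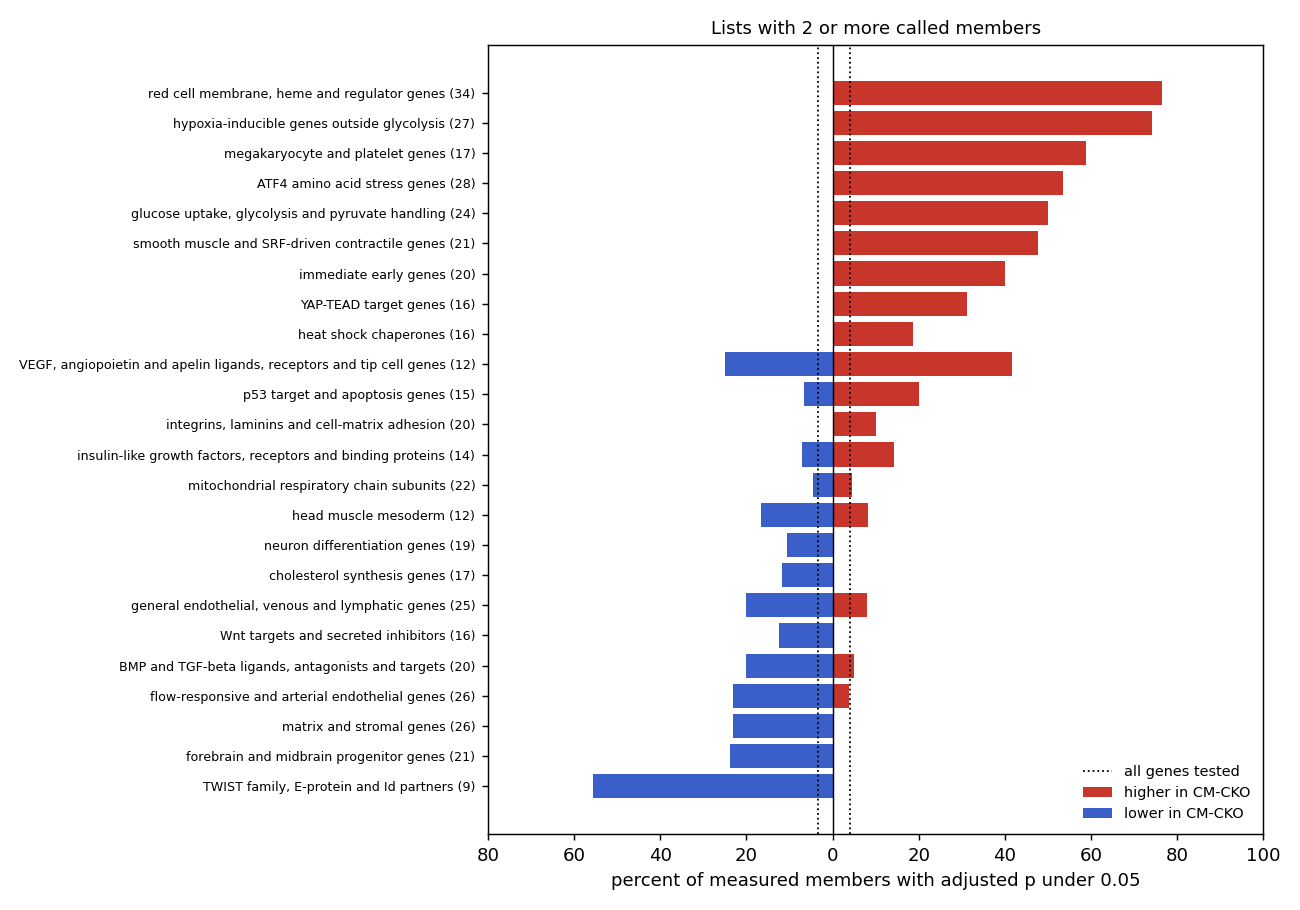
Percent of the measured members of each list (number in brackets) that passed at adjusted p under 0.05, with rises to the right and falls to the left, for the lists with 2 or more changed members. Dotted lines mark the 3.96% of all genes that were higher and the 3.27% that were lower; red cell (26 of 34) and hypoxia-inducible genes (20 of 27) extend farthest to the right.

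A share of the contractile genes was higher. Serum response factor drives actin and actin-binding genes of muscle, and many of them also respond to tension in other cells. Of 21 measured members, 10 rose and 0 fell, with a median change of 0.32 and a slide 3 median of 0.13. Actc1 (chr2:114047282-114052875), the actin of cardiac muscle, was at 8.69, 8.74, 9.22 and 9.12 in CM-CKO 1 to 4 and 6.77, 6.63 and 6.66 in Control 1 to 3. The groups did not overlap, and Actc1 rose by 2.26 ± 0.16 (SE, adjusted p = 5.73e-07). Tagln, of smooth muscle, was at 6.03, 6.38, 6.48 and 6.45 in CM-CKO 1 to 4 and 4.79, 4.74 and 4.70 in Control 1 to 3 and rose by 1.59 ± 0.12 (SE, adjusted p = 1.28e-06); Tagln and Acta1 were each detected on 1 of 3 Control arrays. Acta1, skeletal muscle actin, rose by 2.16 ± 0.19 (SE, adjusted p = 5.32e-06), and Acta2, smooth muscle actin, by 1.13 ± 0.18 (SE, adjusted p = 0.00193). Regulators of the cardiac list gave other values: Nkx2-5 changed by −0.20 ± 0.17 (SE, adjusted p = 0.535) and Mef2c by 0.22 ± 0.14 (SE, adjusted p = 0.372), neither past the threshold. The count of rises on the contractile list was 6 without Control 3, 6 under median scaling and 4 with only the 7 arrays of the 2 groups in the fit.

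Targets of YAP and TEAD, which respond to cell stretch and matrix stiffness, rose in 5 of 16 measured members, although the median change was 0.02. Ankrd1, one of the most used targets, was at 6.61, 7.41, 7.05 and 7.28 in CM-CKO 1 to 4 and 4.82, 4.60 and 4.33 in Control 1 to 3. The lowest CM-CKO head lay 1.79 above the highest Control head. Ankrd1 was detected on 1 of 3 Control arrays. On measured values it rose by 2.50 ± 0.16 (SE, adjusted p = 5.12e-07). Ccn1 and Ccn2, secreted matrix proteins held also by the immediate early list, rose by 1.38 ± 0.20 (SE, adjusted p = 0.000732) and 0.96 ± 0.20 (SE, adjusted p = 0.0105), and the call of Ccn2 ended with slide as a block (adjusted p = 0.0508). The remaining rises, Crim1 and Amotl2, ended without Control 2, and 3 members then passed; 3 passed without Control 3.

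Of 20 immediate early genes, which cells switch on within minutes of a stimulus, 8 rose and 0 fell, with a median change of 0.44. Egr1, a zinc finger factor, was at 8.73, 9.51, 8.71 and 9.49 in CM-CKO 1 to 4 and 7.35, 7.35 and 7.39 in Control 1 to 3 and rose by 1.74 ± 0.19 (SE, adjusted p = 4.81e-05). Ier3, which guards against cell death, rose by 1.91 ± 0.20 (SE, adjusted p = 2.81e-05). Fos, the best known member, was at 5.17, 5.47, 5.41 and 5.64 in CM-CKO 1 to 4 and 4.86, 4.58 and 5.50 in Control 1 to 3, with overlapping groups, and changed by 0.44 ± 0.21 (SE, adjusted p = 0.215). The count was 5 without Control 1, 4 without Control 2, 4 without Control 3, 4 without CM-CKO 2 and 5 without CM-CKO 4.

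Heat shock chaperones rose in 3 of 16 measured genes. Hspa1a, the inducible form of HSP70, was at 5.40, 8.08, 5.65 and 10.78 in CM-CKO 1 to 4 and 4.39, 4.51 and 4.40 in Control 1 to 3. It was not well above background in any Control head, and CM-CKO 2 and 4 were far above CM-CKO 1 and 3. The bound was at least 6.70-fold higher, and the limma fit on measured values gave adjusted p = 0.0414. The call ended in 10 of 18 alternatives with a test. Among them were the fits without Control 1 (adjusted p = 0.112), Control 2 (0.107), Control 3 (0.110) and CM-CKO 2 (0.114). The bound moves with single heads: it was at least 3.12-fold without CM-CKO 4, 10.8-fold without CM-CKO 1 and 10.2-fold without CM-CKO 3. Hspb1, a small heat shock protein gene detected on 1 of 3 Control arrays, rose by 1.17 ± 0.22 (SE, adjusted p = 0.00417). Among 15 p53 targets and apoptosis genes 3 rose and 1 fell, but the fall (Aen) ended in 13 of 18 alternatives and the rise of Pmaip1 in 10 of 18. With slide as a block 4 rose and 0 fell. Cdkn1a, which arrests the cell cycle, rose by 1.00 ± 0.17 (SE, adjusted p = 0.00252), from 6.37, 6.49 and 6.98 in Control to 7.76, 7.43, 7.61 and 7.65 in CM-CKO heads. Of 27 cell cycle and replication genes 0 rose and 1 fell (Rrm2, a call that ended in 3 of 18 alternatives), with a median of −0.06.

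Red cell genes had the highest median change of the 45 lists. Of 34 measured genes of the red cell membrane, heme synthesis and their regulators, 26 rose and 0 fell, with a median change of 1.89. Slc4a1 (chr11:102348820-102365281), the anion exchanger of the red cell membrane, was at 12.32, 13.53, 11.68 and 13.61 in CM-CKO 1 to 4 and 10.21, 10.22 and 9.67 in Control 1 to 3. No CM-CKO head overlapped Control, but the knockout heads spanned from 11.68 to 13.61. Slc4a1 rose by 2.75 ± 0.38 (SE, adjusted p = 0.000488), and its slide 3 difference was 3.67. Alas2, the first enzyme of heme synthesis in red cells, was at 10.56, 11.85, 9.95 and 12.73 in CM-CKO 1 to 4 and 8.63, 8.56 and 7.80 in Control 1 to 3 and rose by 2.94 ± 0.50 (SE, adjusted p = 0.00247). Klf1, the erythroid regulator, rose by 2.55 ± 0.50 (SE, adjusted p = 0.00636), and Sptb, a spectrin of the membrane skeleton, by 2.77 ± 0.41 (SE, adjusted p = 0.000942). Kel, a blood group protein gene, rose by 2.94 ± 0.48 (SE, adjusted p = 0.002).

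Globin genes did not pass. Of 5 measured globins 0 changed, with a median of 0.23 and single changes from −0.04 to 0.72. Hba-a1 was at 13.82, 14.05, 13.76 and 14.05 in CM-CKO 1 to 4 and 13.58, 13.79 and 13.15 in Control 1 to 3, near the top of the array's range. Hbb-y, of the embryonic globins, changed by 0.12 ± 0.11 (SE, adjusted p = 0.541). By contrast, Hbb-b2 lay near the detection threshold in Control heads, with 1 of 3 Control and 4 of 4 CM-CKO arrays detecting it. Its CM-CKO heads spanned 1.43 and overlapped the Control heads. The number of red cell genes that rose was 15 without Control 1, 15 without Control 2, 13 without Control 3 and 15 without CM-CKO 2. It was 5 with only the 7 arrays in the fit and 30 with slide as a block.

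Megakaryocyte and platelet genes rose in 10 of 17 measured members, with a median change of 0.86. Pf4 (chr5:90772435-90773383), a platelet chemokine, was at 9.26, 9.45, 7.46 and 9.35 in CM-CKO 1 to 4 and 4.78, 5.89 and 5.95 in Control 1 to 3. CM-CKO 3 was 1.80 below the next knockout head and still above all Control heads. Pf4 rose by 3.34 ± 0.42 (SE, adjusted p = 0.000212). Tubb1, the platelet tubulin, rose by 2.32 ± 0.38 (SE, adjusted p = 0.00192), Itga2b, the platelet integrin (detected on 2 of 3 Control arrays), by 1.83 ± 0.37 (SE, adjusted p = 0.00735), and Gp5, of the same receptor complex as Gp9, by 1.52 ± 0.23 (SE, adjusted p = 0.00111). The count was 4 with only the 7 arrays in the fit. Among 6 measured macrophage and leukocyte genes, Laptm5 rose by 0.65 ± 0.13 (SE, adjusted p = 0.00907) and 0 fell.

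The knockout heads were not alike on all lists. On the red cell list the mean over Control was 1.19, 2.28, 0.62 and 2.94 in CM-CKO 1 to 4, and on the megakaryocyte list 1.13, 1.25, 0.37 and 1.34. The ATF4 list gave 0.83, 1.12, 0.61 and 1.17. CM-CKO 3 was lowest and CM-CKO 4 highest on these 3 lists. On the glycolysis list the values were 0.45, 0.54, 0.43 and 0.54, and on the contractile list 0.47, 0.47, 0.56 and 0.42, so those heads differed by 0.14 at most. Across all 840 changed genes, the median share of the group change reached by a head was 90.1%, 116%, 79.0% and 117% for CM-CKO 1 to 4. In CM-CKO 4, 424 genes lay more than 1 above the Control mean and 101 more than 1 below it, against 99 and 27 in CM-CKO 3. The SD over the CM-CKO heads was larger than that over the Control heads in 7711 genes (66.3%), with medians of 0.19 and 0.14. The median SD was also 0.19 over Het heads, and 0.13 over CM-Het heads. Of the Het heads only Het 1 lay on slide 1, and its part in this median was not tested. The SD was above 1 in 111 genes over CM-CKO heads and in 16 over Control heads. On the first principal component, the main axis of variation over all arrays, CM-CKO heads ran from 9.57 to 45.2. Het heads ran from −11.1 to −7.56 on it. Whether the red cell levels had a part in the other lists was not tested.

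**Figure D4:**
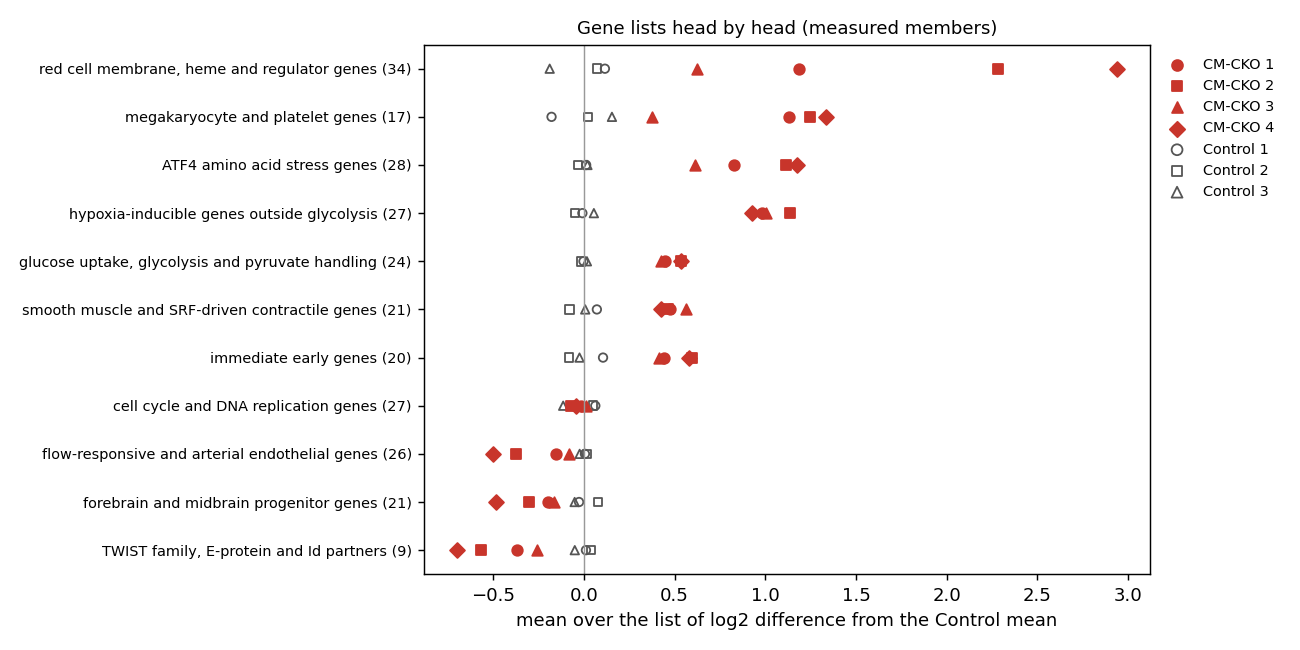
Mean over each list of the log2 difference from the Control mean (horizontal axis), for the 4 CM-CKO heads (red) and 3 Control heads (grey, open), with 1 marker shape per replicate number. The red cell list spreads from 0.62 to 2.94 over the CM-CKO heads, whereas the hypoxia list spans 0.93 to 1.14.

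Matrix and stromal genes were lower in 6 of 26 measured members, with 0 rises and a median change of −0.17. The highest change was 1.41, in a member that did not pass. With slide as a block 5 fell and 2 rose. Lum (chr10:97565501-97572703), a small proteoglycan of connective tissue, was at 7.43, 7.35, 7.36 and 7.12 in CM-CKO 1 to 4 and 8.65, 8.70 and 8.83 in Control 1 to 3. The highest CM-CKO head lay 1.22 below the lowest Control head. Lum fell by 1.41 ± 0.10 (SE, adjusted p = 6.24e-07), and both its probes went the same way. Cygb, a globin of fibroblasts, was at 4.93, 4.64, 4.80 and 4.57 in CM-CKO 1 to 4 and 6.46, 6.27 and 5.89 in Control 1 to 3 and fell by 1.47 ± 0.14 (SE, adjusted p = 1.42e-05) on measured values, with 2 of 4 CM-CKO arrays above the detection threshold. Col6a1, a collagen chain, fell by 0.96 ± 0.16 (SE, adjusted p = 0.00234). Mfap4, of elastic fibres, fell by 0.94 ± 0.18 (SE, adjusted p = 0.00657), a call that ended with slide as a block (adjusted p = 0.0642). Transcription factors of mesenchyme did not pass in any of 17 measured genes at adjusted p under 0.05, with a median of −0.17. Prrx1, a mesenchyme homeobox gene, was at 7.50, 7.35, 7.63 and 7.20 in CM-CKO 1 to 4 and 8.04, 7.86 and 7.50 in Control 1 to 3, with groups that overlap. Alx4 changed by −0.66 ± 0.21 (SE, adjusted p = 0.0657); the slide block moved this to −1.09 (adjusted p = 0.00381). Msx1 changed by −0.43 ± 0.14 (SE, adjusted p = 0.0825).

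Head muscle mesoderm genes did not move as a group: of 12 measured, 1 rose and 2 fell. Tbx1, a T-box factor of pharyngeal mesoderm and endoderm, was at 8.08 ± 0.20 (SD, n = 4) in CM-CKO and 7.28 ± 0.13 (SD, n = 3) in Control heads and rose by 0.80 ± 0.15 (SE, adjusted p = 0.00437). Het and CM-Het heads had means of 7.78 ± 0.29 (SD, n = 4) and 7.72 ± 0.13 (SD, n = 4), between the 2 groups. Lhx2, which marks both head muscle precursors and forebrain, was at 5.81, 5.84, 6.13 and 5.51 in CM-CKO 1 to 4 and 6.85, 6.61 and 6.74 in Control 1 to 3 and fell by 0.91 ± 0.13 (SE, adjusted p = 0.000919).

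Forebrain and midbrain progenitor genes fell in 5 of 21 measured members and rose in 0, with a median of −0.17 and a slide 3 median of −0.40. These tissues do not belong to the Mesp1-Cre lineage. Sox3, of neural progenitors, was at 5.66, 5.76, 5.87 and 5.50 in CM-CKO 1 to 4 and 6.62, 7.05 and 6.66 in Control 1 to 3. All CM-CKO heads were below all Control heads, and Sox3 fell by 1.08 ± 0.15 (SE, adjusted p = 0.000488). Fezf1, of the forebrain and olfactory system, was at 8.95, 8.99, 9.03 and 8.59 in CM-CKO 1 to 4 and 9.71, 9.95 and 9.87 in Control 1 to 3 and fell by 0.95 ± 0.11 (SE, adjusted p = 9.57e-05). Zic2, which acts in neural tube closure, fell by 0.82 ± 0.13 (SE, adjusted p = 0.00163). Neuron differentiation genes fell in 2 of 19. Of 11 hindbrain genes 0 changed, and of 16 neural crest and glial genes Sox10 rose by 0.72 ± 0.17 (SE, adjusted p = 0.0201), a call that ended with slide as a block (0.46, adjusted p = 0.182), without Control 2 (0.58, adjusted p = 0.103) and without Control 3 (0.72, adjusted p = 0.0629).

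Epithelial and other tissues gave single changes. Of 19 surface ectoderm and epithelial genes 1 rose, the keratin gene Krt19, by 1.07 ± 0.18 (SE, adjusted p = 0.00258). Apob, of yolk sac and visceral endoderm, was detected on 2 of 3 Control arrays and rose by 1.00 ± 0.15 (SE, adjusted p = 0.000942), as 1 of 10. Endothelin and Dlx genes of the pharyngeal arches had 1 rise in 13, and pharyngeal endoderm genes 1 in 11, which is Tbx1. In the limma fit, counts were 0 of 6 for notochord and floor plate, 0 of 6 for trunk and somite genes, 0 of 4 for sex-linked genes and 0 of 11 for ribosomal proteins, with a median of 0.00 for the last. Among the 10 lists without a changed gene, an unadjusted p under 0.05 was found for 7 of the mesenchyme transcription factors, 4 of the endoplasmic reticulum chaperones and sensors, 4 of the FGF genes, 2 of the trunk and somite genes and 1 of the globins. It was found for 0 of the cardiac, hindbrain, notochord, ribosomal and sex-linked genes.

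Signalling lists held few changed members each, where 7.23% of all genes tested changed (3.96% higher and 3.27% lower). Whether the lists differed from that share was not tested. Of 17 FGF pathway genes 0 changed. BMP and TGF-beta genes had 1 rise (Ltbp1) and 4 falls (Id2, Id3, Tgfbi and Gdf10) among 20, with a median of 0.04, and 2 falls with slide as a block. Of 18 alternatives, the call ended in 11 for Tgfbi, 9 for Id3, 6 for Ltbp1, 5 for Gdf10 and 1 for Id2. Wnt targets and inhibitors had 2 falls among 16 (Lef1 and Sfrp1), and Notch genes 1 among 15 (Dll1). Ephrins and semaphorins had 1 fall among 22 (Efna4), and hedgehog and retinoic acid genes 1 rise among 16 (Cdon). These calls ended in 13 of 18 alternatives for Lef1, 13 for Cdon, 8 for Dll1, 4 for Sfrp1 and 0 for Efna4. In the IGF list 2 of 14 rose (Igfbp3 and Irs2) and 1 fell (Igf1), and the calls of Irs2 and Igf1 ended in 2 and 3 of 18 alternatives. Igfbp3, a carrier of IGFs, was at 8.51, 8.36, 8.50 and 8.01 in CM-CKO 1 to 4 and 7.22, 7.16 and 7.20 in Control 1 to 3. Its groups were well apart, and Igfbp3 rose by 1.15 ± 0.12 (SE, adjusted p = 2.91e-05). Integrins and laminins had 2 rises among 20. Itga3 rose by 0.63 ± 0.11 (SE, adjusted p = 0.00278), and Thbs1 rose with a call that ended in 15 of 18 alternatives. Cholesterol synthesis genes had 2 falls among 17, and 0 with slide as a block. The calls of these 2, Cyp51 and Dhcr7, ended in 5 and 11 of 18 alternatives.

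Several large changes fell outside the lists. Itgb6, an epithelial integrin, was not well above background in Control heads, and its CM-CKO level was at least 2.37-fold higher (adjusted p = 4.12e-06). Fam162b was not well above background in CM-CKO heads, which made it at least 2.46-fold lower (adjusted p = 4.81e-05). Gas6, a ligand of the AXL family of receptors, was at 5.29, 5.22, 5.58 and 5.42 in CM-CKO 1 to 4 and 6.46, 6.38 and 6.34 in Control 1 to 3 and fell by 1.02 ± 0.12 (SE, adjusted p = 0.000112). Psmb1, a proteasome subunit, was at 11.60, 10.53, 11.93 and 10.50 in CM-CKO 1 to 4 and 12.28, 12.34 and 12.38 in Control 1 to 3. CM-CKO 2 and 4 were over 1 below CM-CKO 1 and 3, and Psmb1 fell by 1.19 ± 0.26 (SE, adjusted p = 0.012), a call that ended with only the 7 arrays of the 2 groups in the fit (adjusted p = 0.0995). Mogat2, of triglyceride synthesis, fell by 1.25 ± 0.13 (SE, adjusted p = 2.81e-05). The fall of Cbr3 (−1.23, detected on 3 of 4 CM-CKO arrays) and that of Lamc3 (at least 1.90-fold lower, detected on no CM-CKO array) came from probes whose values differ between the deposited tables, as did the rise of Itgb6, and all 3 calls ended in the authors' value table.

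The 3 arrays of slide 3 are also in the fit that chose the 840 genes, so the sign of the difference there is no separate check. With slide as a block 486 of the 840 were still past the threshold. Slide 3 differences were larger than the group change for red cell genes, with a median of 3.32 against 1.89, where CM-CKO 4 was the highest knockout head. They were smaller for Esm1 (0.45 against 1.76) and Vegfa (0.50 against 1.09).

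**Figure D5:**
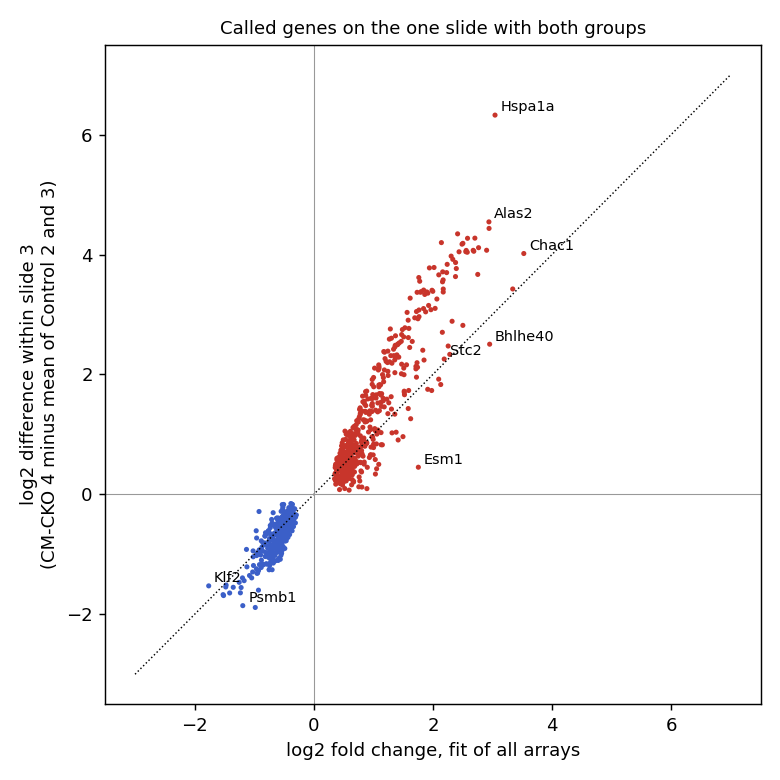
Difference on slide 3 (vertical axis, CM-CKO 4 minus the mean of Control 2 and 3, log2) against the change in the fit of all arrays (horizontal axis, log2) for the 840 changed genes, red where higher and blue where lower. The dotted line marks equal values; the arrays of slide 3 are also in the fit, so equal signs are no separate check, and Hspa1a is at 6.32 against 3.04.

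Genes near the targeted loci were counted because a chromosome carrying an engineered allele brings its neighbours from its strain of origin. Within 10 Mb of Mesp1 (chr7:79792241-79793590) 1 of 69 genes rose and 5 fell, or 8.70%. Within 10 Mb of Twist1 2 of 45 rose and 4 fell, or 13.3%, with Twist1 itself in that window. Both percentages stand against 7.23% of all genes. Id2, with its promoter at chr12:25096043-25096342, also lies within 10 Mb of Twist1. Whether this position had a part in its fall was not tested.

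For 3 genes that changed strongly, the means of the other genotypes lay closer to Control than to CM-CKO. Mean Chac1 levels, each with its SD over 4 Het, 4 CM-Het, 3 Control and 4 CM-CKO heads in that order, were 5.85 ± 0.18, 5.98 ± 0.21, 5.68 ± 0.22 and 9.21 ± 0.58. For Klf2 the same means were 7.05 ± 0.28, 6.81 ± 0.20, 7.08 ± 0.18 and 5.32 ± 0.23. Lum had 8.59 ± 0.14, 8.62 ± 0.05, 8.73 ± 0.09 and 7.31 ± 0.13. Id2 was different, at 9.67 ± 0.21 in Het heads, below all Control heads, and 10.16 ± 0.19 in CM-Het heads. Het and CM-Het heads were not compared by a test here.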

How the data were processed

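RNA of 15 embryo heads was measured on Illumina bead arrays, 1 head per array. The deposited intensity values were bead signals; that they were not normalized was judged from their values, since array medians differed. Detection p-values as deposited stood against the wrong probes for 74.4% to 75.6% of each array, and ranking put them back in the order of the signals. For Het 1 the column held log2 values in their place and was replaced by a mean over 14 arrays at equal rank. In the authors' value table, log2 values were quantile-normalized without background correction, as a recomputation matched within 0.02 for 42477 of 45281 probes. The other 2804 differed, among them those of 682 tested genes, and which table is right for these is not known. No source used here names the scanner software.

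Background was corrected from the detection p-values (nec, offset 16), followed by quantile normalization and log2. Probes with detection p under 0.05 on at least 3 arrays were kept (21869), the brightest standing for its gene. By the platform annotation, 34885 probes had 1 gene name, 18 several and 10378 none. All 4 genotypes entered a single limma model (version 3.58.1, R 4.3.3), with Benjamini-Hochberg adjustment; the script was tested on simulated data. P-values measure the spread between these heads, with a single estimate per gene shared by all 4 genotypes. Where CM-CKO heads varied more than the others, as on the red cell list, SE and p can understate that spread. Positions and promoters are from RefSeq (GRCm38.p6). Figures were drawn with matplotlib 3.10.9.

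The members and the 45 gene lists were chosen with earlier results of these data known, so counts over a list are descriptions. Named genes were the 20 largest rises and 20 largest falls among genes that passed; of each list the 5 passing members with the smallest p, or the 2 with the smallest p where none passed; Twist1, Twist2, Mesp1 and Mesp2; genes that passed and were detected on every array of 1 group and none of the other, at most 10 each way; the 10 with the largest SD over CM-CKO heads; genes that passed within 10 Mb of Mesp1 or Twist1; and textbook cell type markers among the lists. Alternatives covered background correction, scaling, detection filter, probe mean, slide, replicate block, arrays in the fit, the authors' table, each head left out and, added after seeing the data, array weights. Replicate numbers were not used to pair the heads in the main fit. Deviations of same-numbered CM-CKO and Control heads correlated at 0.04, 0.00 and 0.12 across genes, and those of differently numbered heads at −0.08 to 0.07. Values this small cannot settle whether heads with the same number shared a litter.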

Additional observations from a re-analysis of the deposited data

Results flagged for a closer look

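Within the CM-CKO group, 1 head stood apart from the other 3 in 6 of 190 levels and list means tested, by its gap to the nearest head as a share of the range. The threshold used is passed by chance in about 1 of 20 groups of this size. Pf4 was lowest in CM-CKO 3, at 7.46. Hspb1 was highest in CM-CKO 4, at 6.50, and Fezf2 and Itga3 were lowest in that head, at 7.85 and 8.54. Filip1, which was not well above background in the CM-CKO heads, was highest in CM-CKO 2, at 4.49. The mean of the endoplasmic reticulum chaperone list was highest in CM-CKO 3, at 0.11 over Control. Control heads, with 3 values, were not tested in this way.

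Probes without 1 gene name were left out of every comparison above. Of 3235 such probes that were kept, 110 changed between CM-CKO and Control heads (3.40%), 64 higher and 46 lower.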

How the results depend on the processing

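The number of changed genes was 840, and 434 with median scaling, 273 with only the 7 arrays in the fit, and between 385 and 1030 with 1 head left out: 386, 385 and 409 without Control 1, 2 and 3, and 798, 398, 1030 and 948 without CM-CKO 1, 2, 3 and 4. It stayed within 1.5 times under no background correction (934), an offset of 50 (947), no filter (722), the mean of probes (889), slide as a fixed (942) or random (780) block, array weights (733) and the authors' value table (916). The replicate block gave 755, and 16 of 144 named genes lost their call under that pairing. Twist1 no longer passed with slide as a block (−0.51, adjusted p = 0.0662). Lamc3 turned to 0.0205 (adjusted p = 0.836) in the authors' value table, and it was the only named gene to turn in any alternative run. Of 144 named genes that passed, 66 kept their call in every alternative with a test and 78 lost it in 1 or more, 60 of them with only the 7 arrays in the fit. With 3 Control heads, and 1 slide that holds both groups, few calls can be checked within a slide, and genes near the detection threshold (106 to 121 signal units, by array) carry only bounds where no array of a group detected them; where some did, changes are of measured values. The causes of these shifts were not tested.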
